A study of Anser cygnoides with 4 samples.

Results

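Myocytes and PAX7-expressing cells of goose embryonic leg muscle were compared within 4 single-cell libraries. Both groups were set by unique molecular identifiers (UMIs, each marking 1 captured transcript) of single genes, in barcodes with 300 to 6500 genes and 1000 to 50000 UMIs. A myocyte held at least 2 UMIs of MYOG, at least 10 of ACTC1 and 0 of PAX7. A PAX7 cell held at least 2 UMIs of PAX7, 0 of MYOG, at most 2 of ACTC1 and 0 of PTPRC, the leukocyte antigen CD45. Of 49503 barcodes within the limits, 5465 were myocytes and 11823 were PAX7 cells, so that both groups together held 17288. The other barcodes of a library, 61.2 to 72.6% of those within the limits, fell in neither group. These included 725 to 2445 barcodes per library with at least 2 UMIs of both PAX7 and MYOG.

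PAX7 is the transcription factor that marks satellite cells, the stem cells of skeletal muscle, which lie between the fibre and its basement membrane. On differentiation these cells express MYOD1 and then MYOG (myogenin), leave the cell cycle, fuse into fibres and build sarcomeres, the repeating units of thick myosin and thin actin filaments. ACTC1 encodes cardiac actin, the first sarcomeric actin of embryonic skeletal muscle, and fibres also need membrane systems that couple the nerve signal to calcium release.

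The libraries were made with a 10x Genomics 3' kit from leg muscle of female embryos of the Zhedong White goose, 1 library for each of E13, E15, E18 or E23, where the number is the day of embryonic development. Each library was a pool of embryos, 3 by the labels and 4 by the study's methods. The tissue had been digested with enzymes, enriched for skeletal muscle satellite cells (SMSCs) by plating fibroblasts away, frozen and thawed. Digestion and a 40 µm strainer leave single cells, so multinucleated fibres are not represented and the myocytes here are dissociated cells. In the order of the days there were 1632, 2168, 1256 and 409 myocytes and 2709, 2275, 2997 and 3842 PAX7 cells.

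Depth differed between the groups. In the same order the median myocyte held 7572, 9262, 8527.5 and 6213 UMIs, and the median PAX7 cell 9327, 9798, 10998 and 12436.5 UMIs. The summed counts ranged from 2840261 UMIs in the E23 myocytes to 49801552 UMIs in the E23 PAX7 cells (gate genes left out). Of the 17288 cells, 60 carried a barcode that was also in a group of another library, 30 barcodes in all, and 18 of these were in the same group both times.

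The genes of the gates are given as a description, without a test. MYOG stood at 639.9, 1426, 1107 and 694 CPM (counts per 1000000 of the sum) in the myocytes of E13, E15, E18 and E23, and ACTC1 at 5912, 10926, 10100.1 and 5035 CPM. In PAX7 cells ACTC1 stood at 34.8, 57.9, 24.0 and 15.9 CPM and PAX7 at 403, 769.9, 538 and 574 CPM. The median myocyte of E15 held 12 UMIs of MYOG and 81 of ACTC1, against 4 and 28 at E23, so the gate was passed by a wider margin at E15. Barcodes just inside and just outside a gate differed far less than the groups did. ACTN2, the α-actinin of the Z-disc, stood at 71.9 CPM with 10 to 12 UMIs of ACTC1 and at 49.5 CPM with 7 to 9, and TNNT3, the fast troponin T, at 659 and 395 CPM. C1QTNF3, a secreted protein, stood at 2840.1 CPM in barcodes with 2 UMIs of PAX7 and at 2196 CPM in those with 1.

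The group names were held against marker genes that took no part in the gates. The myocyte markers (11 of 13 listed were in the files, among them MYH15, TNNT3, NEB and DES) summed to 6482 to 14067 CPM per library in myocytes and to 53.3 to 110.5 CPM in PAX7 cells. Reference fibro-adipogenic cells of the same libraries (6328 barcodes with at least 3 UMIs of both DCN and COL6A3) held 56.1 to 115 CPM of the same markers. The summed level in PAX7 cells was at that background and is not read as expression. Single markers lay on both sides of the reference cells. MYMK stood at 4.46 CPM in PAX7 cells against 0.856 CPM there, and TNNC1 at 3.27 against 9.03 CPM. The other satellite cell markers (8 of 8 in the files) did not separate the groups, with 568 to 924 CPM in myocytes and 545 to 948 CPM in PAX7 cells. Their members differed in direction: CALCR, MEGF10 and SDC4 were higher in myocytes, PAX3, FGFR4 and HEYL were lower, MYF5 passed no test and CHODL was too low to be tested.

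Markers of other cell types were checked in both groups. The fibro-adipogenic markers (9 of 10 in the files) summed to 277 to 706 CPM in myocytes, 1279.7 to 1693 CPM in PAX7 cells and 5225 to 7825 CPM in the reference fibro-adipogenic cells. PDGFRA, a defining receptor of that lineage, stood at 4.61 CPM in myocytes and 3.86 CPM in PAX7 cells against 69.8 CPM in the reference cells. OSR1 was likewise low in both groups, at 4.91 and 5.85 CPM against 64.5 CPM. Other markers of the list held more in PAX7 cells than in myocytes. In the same order DCN stood at 108, 235 and 1436 CPM and COL1A1 at 101, 400 and 1433 CPM. Immune markers (6 of them) summed to 0.842 to 8.28 and 0.927 to 5.64 CPM and endothelial markers (7) to 2.48 to 19.3 and 2.74 to 7.08 CPM, in myocytes and PAX7 cells. No marker of these lists was at exactly 0 in both groups.

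Counts were summed per library and group, which gave 8 sums, and tested with edgeR's quasi-likelihood test with the library as a block and Benjamini-Hochberg adjustment over all genes tested. Of 25487 genes, 13738 passed the filter on low counts. Fold changes are log2 ratios of myocytes over PAX7 cells. Values after ± are the standard deviation (SD, n = 4) of the log2 differences within the libraries, in which a sum under 3 counts was raised to 3. In the gene by gene account, rose and fell mean higher and lower in myocytes, a value after rose by or in brackets is a log2 fold change, and 4 values in a row stand for E13, E15, E18 and E23. Levels per library are CPM of the sum scaled by edgeR's trimmed mean of M values (TMM). The 4 libraries stand for 4 days and 4 pools, so p-values measure how evenly a difference recurred over both. The cells were chosen by transcripts of the gate genes, so any gene that goes with those transcripts from cell to cell had to differ between the groups. A sum cannot tell more cells with a transcript apart from more transcripts per cell.

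Myocytes differed from PAX7 cells in a large share of the transcriptome. At an adjusted p below 0.05, 3015 genes (21.9% of those tested) were higher in myocytes and 3072 (22.4%) were lower. By at least 1 log2 unit as well, 1562 genes (11.4%) were higher and 1828 (13.3%) lower. The largest differences lay on the myocyte side. At 5 log2 units or more there were 189 genes higher and 15 lower. Of the 6087 genes called, 5895 went the same way in all 4 libraries, and for 26.0% of the genes tested the 4 myocyte sums did not overlap the 4 PAX7 sums. With the sums scaled by total counts only, the median of all genes stood at −0.17 log2 units, against −0.00 with TMM, and the split became 2245 higher and 3881 lower. Without E15 there were 1938 higher and 1997 lower, and without E18 1824 and 1974. The counts were 2553 and 2860 without E13, 2533 and 2818 without E23, and 1592 and 1673 without the block. Calls thus became fewer over all genes whenever a library or the block was left out. Losses of calls in the lists below are to be read beside these counts and were not tested against them.

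**Figure D1:**
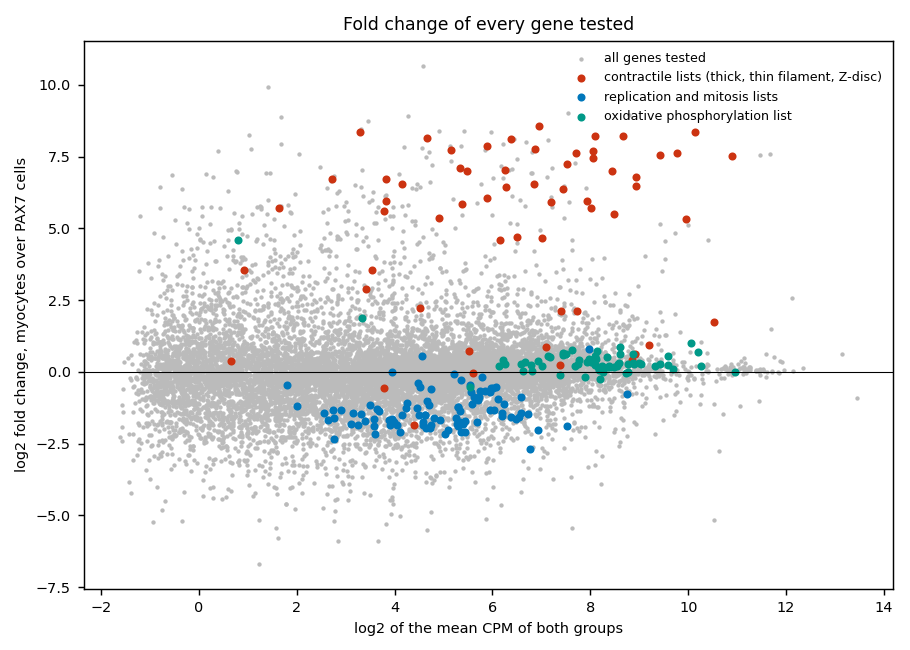
Log2 fold change of myocytes over PAX7 cells (vertical axis) against the log2 mean CPM of both groups (horizontal axis) for the 13738 genes tested, each a grey point. Members of the 3 contractile lists (red) reach 8.56 log2 units, the replication and mitosis lists (blue) lie mostly below 0 and the oxidative phosphorylation list (green) mostly just above 0.

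Among genes with a proper symbol, sarcomere genes gave the largest contrasts. Some LOC identifiers, which carry no gene name and were left out of this ranking, rose by more, LOC136786478 by 10.67. Of 26 thick filament genes listed, 18 were in the files by symbol. Those not matched were MYH1, MYH2, MYH3, MYH7, MYL4, MYLPF, MYBPC2 and TTN, and no LOC identifier was put in their place. Of the 17 thick filament genes tested, 15 were higher in myocytes (88.2%, against 21.9% of all genes) and 0 lower. Their median log2 fold change was 6.57, against −0.00 over all genes. MYH15, a sarcomeric myosin heavy chain, stood at 84.3, 403, 367 and 139 CPM in myocytes. It stood at 0.355, 0.904, 0.669 and 0.469 CPM in PAX7 cells. E15 and E18 were the highest myocyte sums and E13 the lowest, and the groups were far apart at each day (log2 fold change 8.56 ± 0.55, adjusted p = 6.41e-05). MYL1, the essential light chain of fast myosin, rose by 8.23 ± 0.63, from 1.13 to 4.68 CPM to 327 to 1255 CPM. MYOM1 and MYOM2, which cross-link myosin at the M-band, rose by 8.10 ± 0.48 and 8.15 ± 1.34. The counts of MYOM2 in PAX7 cells were only 4, 3, 2 and 18. MYLK4, a myosin light chain kinase, was the exception among the genes with high counts. It held 347, 369.6, 199.8 and 163 CPM in myocytes and 284, 321, 16.8 and 5.98 CPM in PAX7 cells, close at E13 and E15 and far apart at E18 and E23, and it did not pass the test (2.14 ± 2.32, adjusted p = 0.132).

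Thin filament genes followed, with a median of 5.78. Of 16 tested, 13 were higher (81.25%, against 21.9% of all genes) and 1 was lower (6.25%, against 22.4%). TNNT3 held 1128, 2741, 2775 and 2332 CPM in myocytes and 4.12 to 9.22 CPM in PAX7 cells (8.36 ± 0.39, adjusted p = 6.28e-05). It was lowest at E13 in both groups, and the myocyte sums were all above the PAX7 sums. TNNC2 and TNNI2, the calcium-binding and inhibitory subunits of fast troponin, rose by 7.54 ± 0.83 and 7.62 ± 0.49. TPM1, a tropomyosin that is also made by non-muscle cells, differed less (1.73 ± 1.10, adjusted p = 0.023). It was not called without E23. Its PAX7 sums were 733, 1282, 343 and 469 CPM and its myocyte sums 1144, 2789.6, 2999 and 1990.2 CPM, so the E15 PAX7 sum overlapped the myocyte range. LMOD1, the leiomodin known from smooth muscle, was the member that fell (−1.83 ± 1.09, adjusted p = 0.0201), from 12.5 to 83.1 CPM to 4.33 to 12 CPM. Without the E13 library, and also without E15, LMOD1 was no longer called.

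Z-disc and scaffold genes had 21 of 27 higher (77.8%, against 21.9% of all genes) and a median of 5.91. ACTN2 rose by 8.21 ± 0.90 (adjusted p = 0.000274), from 1.99, 2.48, 1.12 and 1.60 CPM in PAX7 cells to 270.1, 667, 681 and 563 CPM in myocytes. MYOZ1, a calsarcin that binds calcineurin at the Z-disc, was at or near 0 in PAX7 cells, with 1, 0, 3 and 4 counts there and 130, 350, 347 and 45 counts in myocytes. ANKRD1, a stretch-responsive ankyrin repeat protein, stood at 186, 28.3, 7.22 and 92.8 CPM in PAX7 cells and 2425, 1285, 1443 and 2441 CPM in myocytes (5.32 ± 1.67). The groups were apart in every library, although the PAX7 level varied widely between them. XIRP1, an actin-binding repeat protein of fibre attachment sites, rose by 6.48 ± 1.49. PALLD, the widely expressed actin scaffold palladin, stood at 268 to 525 CPM in PAX7 cells and 438 to 569 CPM in myocytes and did not pass (adjusted p = 0.0763). The single member that fell was MYOZ3 (−0.56), and the list had 0 lower without E13, E15 or E18, without the block and under 6 other alternatives. MYOZ3 and the other single members named below for going against their list were picked after their values were seen.

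LOC identifiers aside, the other genes with the largest positive fold changes belong to the same organelles or to the fibre membrane. SMPX, a small protein of the muscle cytoskeleton, rose by 8.40 ± 0.66 and KLHL31, a kelch-repeat protein of muscle, by 8.36 ± 0.58. CAV3, the muscle caveolin of membrane folds and forming T-tubules, rose by 8.08 ± 0.59, from 0.532 to 1.51 CPM to 85.2 to 406 CPM. Myocyte levels of SMPX were 30.7, 77.5, 131 and 101 CPM and those of CAV3 85.2, 323, 406 and 299 CPM, both lowest at E13. For these genes the PAX7 level was near the background. MYH15 stood at 0.634 CPM in PAX7 cells and 0.374 CPM in the reference fibro-adipogenic cells, TNNT3 at 7.21 and 7.83 CPM, and CAV3 at 1.03 and 0.638 CPM (unscaled means of the 4 libraries). A fold change over such a level depends on the background as well as on the myocyte level.

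**Figure D2:**
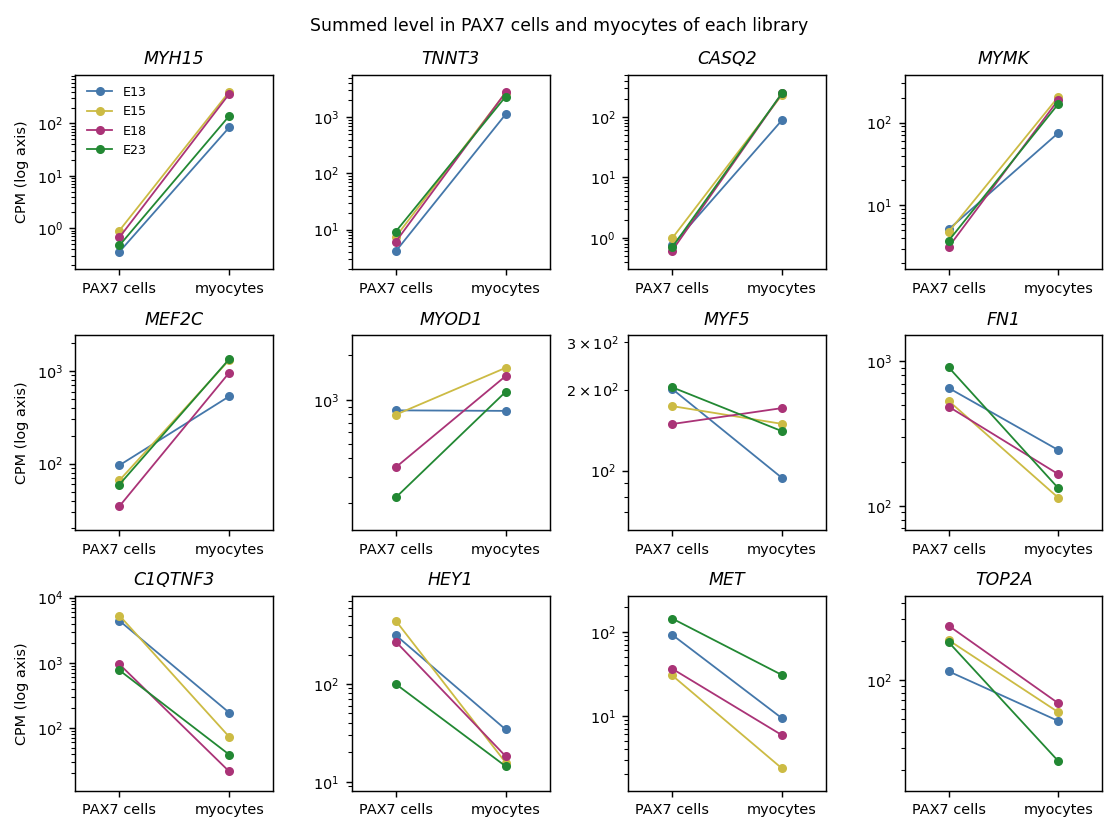
CPM of the summed counts (logarithmic vertical axes, TMM-scaled) in PAX7 cells and myocytes for 12 genes, with 1 coloured line per library. The lines of MYH15, TNNT3, CASQ2, MYMK and MEF2C rise in all 4 libraries, those of FN1, C1QTNF3, HEY1, MET and TOP2A fall in all 4, and those of MYOD1 and MYF5 do not share a direction.

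Genes of excitation-contraction coupling were higher in myocytes in 22 of 24 cases (91.7%, against 21.9% of all genes), with a median of 2.41. CASQ2, a calcium-binding protein of the sarcoplasmic reticulum, rose by 8.02 ± 0.79 (adjusted p = 0.000198), from 0.614 to 0.983 CPM to 88.7, 233, 246 and 249 CPM. CACNA2D1, an auxiliary subunit of the voltage-gated calcium channel, was already high in PAX7 cells at 321, 214, 108 and 88.1 CPM. Its myocyte level was 486, 533, 414 and 778 CPM. The PAX7 level was highest at E13 and lowest at E23, the myocyte level was highest at E23, and the groups did not overlap (1.74 ± 1.08, adjusted p = 0.0211). Without E15 or without E18 it was no longer called. ATP2A2, the calcium pump of the reticulum of many cell types, held 177 to 280.5 CPM in myocytes and 143 to 259 CPM in PAX7 cells and did not pass (adjusted p = 0.203). The member that fell was ASPH (−0.54), and the list had 0 lower without E15 or without the block.

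Acetylcholine receptor genes rose, and the other genes of the synapse went both ways. Of 13 genes tested, 9 were higher (69.2%, against 21.9% of all genes) and 2 lower (15.4%, under the 22.4% of all genes). Their median was 1.62. Besides receptor subunits, the members that rose included the synapse genes RAPSN, DOK7 and MUSK. Those that fell were AGRN and UTRN. CHRNG and CHRNA1, the embryonic γ subunit and the ligand-binding α subunit, rose by 6.44 ± 0.99 and 6.12 ± 0.93. CHRND, the δ subunit, was well above background in PAX7 cells. It held 26.5, 48.5, 29.3 and 27.9 CPM there and 113, 255, 283 and 174 CPM in myocytes (2.60 ± 0.50, adjusted p = 0.000873), against 2.11 CPM unscaled in the reference fibro-adipogenic cells. AGRN, the matrix proteoglycan that clusters the receptors, fell in each library, from 39.1, 86.5, 58.6 and 69.0 CPM to 14.2, 25.2, 20.4 and 21.5 CPM (−1.61 ± 0.15, adjusted p = 0.000391). UTRN, the dystrophin relative of the synapse, fell (−1.18 ± 0.78) and was not called without E15 or without E18. ERBB3, among the members that rose, is also a Schwann cell gene. Of 6 Schwann markers in the files, ERBB3 stood at 2.68 CPM in myocytes and 0.12 in PAX7 cells, while SOX10 was at 0.0397 and 0.094. The list summed to 7.0 to 24.0 CPM in myocytes and 1.22 to 2.27 CPM in PAX7 cells, and the part of such cells in the ERBB3 value was not tested.

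The dystrophin complex and membrane repair genes did not move together, with 9 higher, 4 lower and 9 not called of 22 and a median of 0.31. These are 40.9% higher, against 21.9% of all genes, and 18.2% lower, under the 22.4% of all genes. DMD itself, which links the cytoskeleton to the membrane complex, held 879, 1395, 2285 and 2070.4 CPM in myocytes and 821, 1368, 862 and 965 CPM in PAX7 cells. The groups were close at E13 and E15 and apart at E18 and E23 (adjusted p = 0.0994). CAPN3, the muscle calpain, rose by 3.62 ± 0.64 and ANXA6, a membrane-binding annexin, by 1.31 ± 0.55. MYOF, the ferlin known from myoblast fusion, fell (−2.80 ± 1.16), and its PAX7 level ranged from 32.8 to 129 CPM against 1.87 to 27.9 CPM in myocytes. SNTB2, a syntrophin, fell (−1.73 ± 0.55) and ANXA2 (−1.06 ± 0.43). The fourth that fell was DTNB (−0.61).

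Of 24 fusion and adhesion genes, 12 were higher in myocytes and 4 lower, with a median of 1.04. These are 50.0% higher, against 21.9% of all genes, and 16.7% lower, under the 22.4% of all genes. MYMK (myomaker), the membrane protein needed for myoblast fusion, stood at 75.5, 206, 189.8 and 169 CPM in myocytes and at 3.15 to 5.14 CPM in PAX7 cells (5.19 ± 0.89, adjusted p = 0.000719). It was lowest in E13 myocytes, and its PAX7 level of 4.46 CPM unscaled was above the 0.856 CPM of the reference fibro-adipogenic cells. TMEM182, a membrane protein that restrains fusion in chicken and mouse, rose by 8.12 ± 0.81, from 0.313 to 1.34 CPM to 81.3 to 264 CPM. NCAM1, BVES and JAM3, adhesion molecules of the myogenic lineage, rose by 1.53 ± 0.50, 3.26 ± 1.20 and 3.20 ± 0.33. The members that fell were KIRREL1 (−1.59 ± 0.69), an adhesion molecule related to the fly fusion receptors, CDH11 (−1.02 ± 0.59), a mesenchymal cadherin, the integrin ITGAV (−0.81) and the Rac activator DOCK1 (−0.46). CDH11 is also a fibro-adipogenic marker, at 374 CPM in the reference cells, and was not called without E13. Without that library 2 of the list were lower.

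Transcription factors went both ways: 17 of 44 were higher in myocytes (38.6%, against 21.9% of all genes), 10 lower (22.7%, near the 22.4% of all genes) and 17 not called, with a median of 0.31. Without E23 the median was −0.02, with 13 higher and 12 lower. The highest fold changes were those of VGLL2, a TEAD cofactor of skeletal muscle (4.17 ± 0.34, adjusted p = 0.000167), and MEF2C, the MADS-box factor that acts with the myogenic factors on sarcomere genes (4.05 ± 1.05, adjusted p = 0.00195). MEF2C stood at 533, 1316, 960.1 and 1347 CPM in myocytes. In PAX7 cells it stood at 96.1, 66.0, 34.7 and 59.5 CPM. E13 had the lowest myocyte level and the highest PAX7 level, so its difference of 2.47 log2 units was the smallest. MEF2D and MEF2A rose by 1.96 ± 0.40 and 1.43 ± 0.44.

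Among the 4 myogenic regulatory factors MYOG belonged to the gate and the others differed in direction. MYF6 (MRF4), the factor of late differentiation, held 363, 556, 430.0 and 287 CPM in myocytes and 132, 119.7, 88.0 and 111 CPM in PAX7 cells, without overlap (1.83 ± 0.49, adjusted p = 0.0019). MYOD1, the determination factor, held 841, 1648, 1449 and 1132 CPM in myocytes. In PAX7 cells it held 848, 792, 348 and 217 CPM. The groups were level at E13 and apart by 2.38 log2 units at E23, and the PAX7 level was lower at the later days (1.38 ± 1.08, adjusted p = 0.0431). The MYOD1 call was lost without the E15, E18 or E23 library, without the block, with total counts only and under 4 other alternatives. MYF5, expressed in satellite cells and early myoblasts, held 93.8, 149, 171 and 140.0 CPM in myocytes and 201, 174, 149 and 204 CPM in PAX7 cells, lower in myocytes in 3 of 4 libraries, and did not pass (adjusted p = 0.171).

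Factors of the EYA family, cofactors that act upstream of the myogenic factors, did not follow 1 direction. EYA4 and EYA1 rose by 2.57 ± 0.40 and 1.68 ± 0.88, and EYA2 passed no test. Among homeobox factors, SIX2 fell (−2.04 ± 0.52) and SIX4 passed no test. Other factors higher in myocytes were KLF5 (2.84 ± 0.88), SOX6 (1.52 ± 0.82), TEAD4 (1.42 ± 0.80), PITX3 (1.28 ± 0.24), VGLL3 (1.26 ± 0.62), ZEB1 (1.02 ± 0.43) and SRF (0.90 ± 0.35), the actin-responsive factor. The E proteins, which pair with myogenic factors, were split. TCF3 and TCF12 rose by 0.50 ± 0.15 and 0.48 ± 0.34, while TCF4 fell. Leaving out 1 library ended the call of EYA1 and TCF3 (E18), of SOX6 and TEAD4 (E15 or E23) and of TCF12 (E15, E18 or E23).

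Among the 10 factors lower in myocytes, a share near that of all genes, were ID proteins and repressors. ID1, ID3 and ID4 bind E proteins and block their pairing with myogenic factors. ID1 stood at 786, 1602, 1382 and 589.7 CPM in PAX7 cells and 152, 471, 448 and 327 CPM in myocytes (−1.66 ± 0.63), ID3 fell (−1.67 ± 0.30) and ID4 (−2.31 ± 1.06). ID2 did not pass (adjusted p = 0.331). MSC (musculin), a repressor of MYOD activity, fell (−2.95 ± 0.88, adjusted p = 0.00249), from 127, 217, 355 and 222 CPM to 23.4, 15.6, 30.3 and 57.1 CPM, without overlap. TWIST1 and SNAI2 fell (−2.38 ± 0.53 and −2.17 ± 0.87) and are also factors of mesenchymal cells. Without the barcodes of the highest doublet scores SNAI2 stood at −4.70. PAX3, the embryonic relative of PAX7, fell from 23.9, 65.5, 46.9 and 20.1 CPM to 8.65, 6.80, 8.75 and 13.4 CPM (−1.99 ± 1.16, adjusted p = 0.0172), and its call was lost without E18. TCF4, an E protein like TCF3 and TCF12 but opposite to them in direction, and NFIX fell (−1.49 ± 0.21 and −1.19 ± 0.35). The 17 factors that were not called had fitted changes from −0.94 (SOX5) to 0.48 (BHLHE41).

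Receptors and surface proteins known from satellite cells were lower in myocytes in 14 of 29 cases and higher in 6, with a median of −0.82. These are 48.3% lower, against 22.4% of all genes, and 20.7% higher, near the 21.9% of all genes. MET, the receptor of hepatocyte growth factor, stood at 92.1, 30.2, 36.3 and 144 CPM in PAX7 cells. In myocytes it stood at 9.32, 2.35, 5.86 and 30.6 CPM. Each library fell, and E23 was the highest in both groups, so its myocyte sum overlapped the lowest PAX7 sum (−2.95 ± 0.65, adjusted p = 0.00115). SDC3, a syndecan, fell (−3.03 ± 0.85) at low levels of 4.06 to 11.1 CPM in PAX7 cells.

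Other surface proteins of the list were higher in myocytes, at a share near that of all genes. CALCR, the calcitonin receptor that in mouse marks quiescent satellite cells, stood at 113, 126, 107 and 42 CPM in myocytes and 44.8, 105, 23.7 and 22.3 CPM in PAX7 cells, higher in myocytes in all 4 libraries but with overlapping groups (1.17 ± 0.80, adjusted p = 0.0289). MEGF10, a receptor of myoblasts, rose by 1.69 ± 0.99, SDC4 by 1.07 ± 0.70 and GPC1, a glypican, by 1.89 ± 0.32. Without E18 the list had 1 member higher in place of 6, with CALCR, MEGF10 and SDC4 among the calls lost. CALCR was also lost without E13 or E23, MEGF10 without E23 and SDC4 without E15. Without E13 or without E23 the list had 3 higher.

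Notch signalling, which in mouse keeps satellite cells undifferentiated, had ligands on both sides. Of 21 genes tested, 5 were higher in myocytes (23.8%, near the 21.9% of all genes) and 8 lower (38.1%, against 22.4%). Their median was −0.24. HEY1, a direct Notch target, stood at 315, 443, 271 and 99.8 CPM in PAX7 cells and at 34.3, 15.7, 18.3 and 14.4 CPM in myocytes (−3.72 ± 0.89, adjusted p = 0.00144). JAG2, a ligand, rose from 19.7, 9.71, 9.09 and 32.2 CPM to 118, 123, 142 and 127 CPM (3.05 ± 0.92, adjusted p = 0.00263). The ligand JAG1 went the other way (−2.95), as did the targets HEYL (−2.40) and NRARP (−0.99), while the target HES1 was not called (0.87), all 4 given after their values were seen. DLL1, another ligand, was at low counts, 62, 50, 22 and 8 in myocytes and 7, 6, 7 and 3 in PAX7 cells (4.05 ± 1.03). NOTCH1, a receptor, rose by 1.45 ± 0.36 and MAML2, a coactivator, fell (−1.35 ± 0.41). For HEY1 and JAG2 the groups did not overlap. Without E15, E18 or E23 the list had 3 members higher in place of 5, and without E18 5 lower in place of 8.

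Growth factor pathways showed few shared directions. FGF response genes had 4 of 19 higher (21.1%, near the 21.9% of all genes) and 6 lower (31.6%, against 22.4%), with a median of −0.51. Without the block 1 was higher and 3 were lower. DUSP4, a MAP kinase phosphatase, fell (−1.38 ± 0.77), while the immediate early genes EGR1, EGR2 and FOS rose by 0.81 ± 0.11, 1.28 ± 0.60 and 1.24 ± 0.52, and MYC and SPRY2 passed no test. DUSP4 was not called without E15, E18 or E23. TGF-β, BMP and myostatin genes had 5 higher (14.7%, under the 21.9% of all genes) and 10 lower (29.4%, against 22.4%) of 34. Their median was −0.21. BMPR1B, a BMP receptor, fell (−3.49 ± 1.03, adjusted p = 0.00271), from 46.7, 129, 125 and 50.7 CPM to 10.2, 5.08, 9.14 and 5.37 CPM. TGFB2 fell (−1.75 ± 0.19, adjusted p = 0.00038) and TGFB3 rose by 2.70 ± 0.54 (adjusted p = 0.000949), so these closely related ligands went opposite ways without overlap of the groups. Without E15, E18 or E23 the list had 2 members higher in place of 5. SMAD9, a BMP-responsive SMAD, rose by 1.70 ± 0.51. GREM1, a BMP antagonist, held 21.0, 162, 11.4 and 7.24 CPM in PAX7 cells and did not pass (adjusted p = 0.068), but did so with a log2 change of −6.08 once barcodes with the highest doublet scores were removed.

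Retinoid, Wnt and hedgehog genes were lower in myocytes in 19 of 30 cases (63.3%, against 22.4% of all genes), with a median of −1.53. Only 2 were higher (6.67%, under the 21.9% of all genes). GLI2, the transcriptional effector of hedgehog signals, stood at 61.0, 156, 95.5 and 119 CPM in PAX7 cells and 5.74 to 12.1 CPM in myocytes (−3.51 ± 0.41, adjusted p = 0.000292). DKK3, a secreted protein of the Wnt antagonist family, fell (−3.08 ± 0.94), RXRA, a retinoid receptor, (−1.46 ± 0.61), TCF7L2, a Wnt effector, (−0.77 ± 0.34) and GAS1, a hedgehog co-receptor, (−1.05 ± 0.37). The members that rose were HHIP, a hedgehog antagonist (1.24 ± 0.81, at 1.68 to 4.33 CPM in myocytes and lost under 8 alternatives, the E15, E18 and E23 libraries left out in turn among them), and the retinoic acid enzyme ALDH1A2 (0.80).

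**Figure D3:**
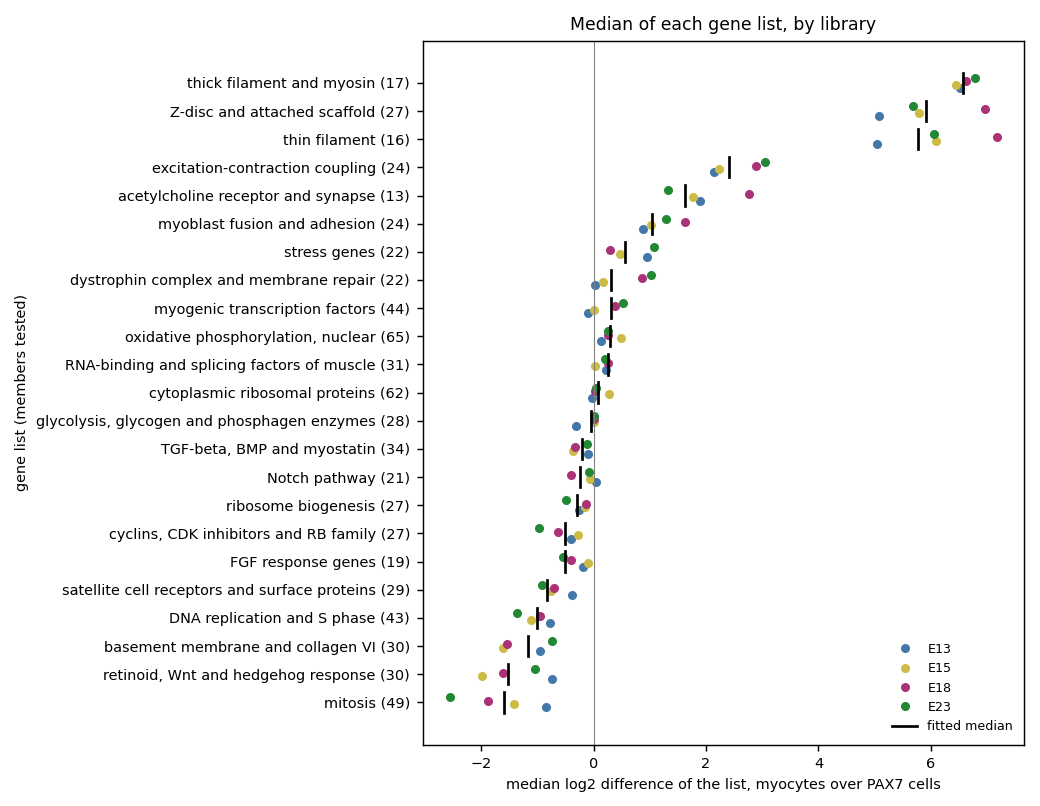
Median log2 difference of myocytes over PAX7 cells for each gene list (rows, members tested in brackets), with 1 coloured point per library and a black bar for the median of the fitted fold changes. The 3 contractile lists lie at medians of 5.78 to 6.57 in the fit, and the mitosis list at −1.58 spreads from −0.85 at E13 to −2.55 at E23.

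Matrix genes were lower in myocytes, with a median of −1.16 over 30 basement membrane and collagen VI genes. Of these, 18 were lower (60.0%, against 22.4% of all genes) and 3 higher (10.0%, under the 21.9% of all genes). FN1 (fibronectin) stood at 655, 533, 486 and 911 CPM in PAX7 cells and 243, 113, 165 and 132 CPM in myocytes, without overlap (−1.99 ± 0.63, adjusted p = 0.00281). VCAN, a large proteoglycan, and FBLN1, a fibulin, fell (−2.93 ± 0.62 and −2.98 ± 1.01). The 3 members that rose were LAMB2 (2.11 ± 0.82), the laminin β2 chain of the synaptic basement membrane, SPARC (0.88) and HSPG2 (0.39). Without E15 or E23 the list had 2 higher, and without E18 or without the block 1. LAMA2, the laminin chain of the fibre's own basement membrane, and COL15A1 passed no test. The fibro-adipogenic markers moved in the same direction, with the sums given above. Of the 8 tested, COL1A1, COL1A2, COL6A3, CDH11 and DCN fell, and COL3A1, PDGFRA and OSR1 passed no test. Barcodes with 3 or more UMIs of other cell types' markers were left out as an alternative, which kept 535 to 1699 PAX7 cells per library, and those with the highest doublet scores as another. FN1 then stood at −3.83 and −3.69, VCAN at −4.80 and −4.74, and the median of the list at −1.70 and −1.71. The first of these removes cells by fibro-adipogenic markers, of which COL6A3 is itself in the list, and the part of such cells in the matrix values was not tested. Leaving out cells with mitosis transcripts moved the median to −2.16.

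Of the 10 genes that the naming rule given below took for negative changes, 8 encode secreted proteins. The share of such genes among all genes tested was not counted. LOC106048600 (−5.49) and GLRB (−5.23) were also called lower but are outside the 10. C1QTNF3 stood at 4412, 5300.1, 949 and 767 CPM in PAX7 cells. In myocytes it stood at 171, 73.0, 21.5 and 38.9 CPM. E13 and E15 were several times above E18 and E23 in PAX7 cells, and the E13 myocytes also held the most (−5.17 ± 0.84, adjusted p = 0.000662). STK32B, a serine/threonine kinase, fell from 353, 505, 425 and 267 CPM to 10.7, 5.03, 10.3 and 11.1 CPM (−5.44 ± 0.89). CYTL1, a small secreted protein, lies next to STK32B in the annotation and fell (−4.62 ± 1.97). GCG, the glucagon precursor, lies next to FAP and fell (−4.60 ± 2.12). Whether neighbours share reads was not tested.

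The other 6 were COL8A2, a short-chain collagen, MMP7, a matrix protease, NSG2, a vesicle protein known from neurons, C1QTNF12 and METRN, secreted hormone-like proteins, and PNOC, the nociceptin precursor. COL8A2 had 464, 1351, 358 and 1181 counts in the PAX7 sums of E13, E15, E18 and E23 and 17, 4, 0 and 0 in the myocyte sums (−5.87 ± 1.88, adjusted p = 0.00389). PNOC stood at 42.7, 41.6, 53.8 and 67.9 CPM in PAX7 cells and 4.62, 0.749, 0.298 and 2.69 CPM in myocytes (−4.87 ± 1.81). NSG2 held 11.8, 157, 284 and 8.37 CPM in PAX7 cells, high at E15 and E18 only, against 2.54, 2.46, 3.38 and 0 CPM in myocytes. MMP7 was also a gene of immune cells, at 138 CPM unscaled in the reference immune cells (272 barcodes) against 28.9 CPM in PAX7 cells. The reference fibro-adipogenic cells held 20.7 CPM of MMP7, close to the PAX7 level. GCG stood at 36.7 CPM in the immune, 31.4 CPM in the PAX7 and 6.18 CPM in the fibro-adipogenic cells. The part of other cells in these PAX7 values was not tested. The 6 immune markers stood at 0.071 to 2.01 CPM in both groups. C1QTNF12 and METRN fell (−5.03 ± 2.35 and −4.95 ± 0.83).

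Cell cycle genes were lower in myocytes. Of 49 mitosis genes tested, 47 were lower (95.9%, against 22.4% of all genes) and 0 higher, with a median of −1.58. Of 43 replication genes, 36 were lower (83.7%) and 0 higher, with a median of −1.01. TOP2A, the topoisomerase of dividing cells, stood at 117, 205, 265 and 197 CPM in PAX7 cells and 48.3, 56.4, 66.2 and 23.5 CPM in myocytes, without overlap (−2.01 ± 0.75, adjusted p = 0.00381). RRM2, a subunit of the enzyme that makes deoxynucleotides, fell (−2.68 ± 0.28), ANLN (anillin), a cytokinesis scaffold, (−2.17 ± 0.54), and PCNA, the polymerase clamp, (−0.77 ± 0.13). DUT, an enzyme of the replication list that removes dUTP, was not called (0.78 ± 1.10). It was higher in myocytes at E13 and E15, with 1.72 and 1.56 log2 units, and lower at E23 with −0.62.

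The share of cells with mitosis transcripts differed as well. After thinning each cell to 4000 UMIs, cells in which 2 or more of the 6 mitosis genes TPX2, PLK1, CCNB2, CDK1, TOP2A and MKI67 had a UMI made up 7.1, 7.58, 6.92 and 2.14% of myocytes. The shares in PAX7 cells were 16.8%, 23.7%, 36.2% and 31.9%. Unthinned, they were 4.16 to 11.3% in myocytes and 27.2 to 45.3% in PAX7 cells. The share was lower in myocytes in 4 of 4 libraries, by a mean of 21.2 ± 9.91 percentage points (SD, n = 4). An exact two-sided permutation test over the libraries gave p = 0.125, the smallest that 4 pairs can give. With every cell that held a UMI of these genes left out, 5 mitosis genes were lower and 2 higher of 33 still tested (median −0.54) and 28 replication genes were lower and 2 higher of 43 (median −0.59). That filter selects on mitosis genes themselves, so a smaller difference in the mitosis list was built into it. At E23 it kept 1451 of 3842 PAX7 cells and 320 of 409 myocytes. Without E18, 31 mitosis genes were lower.

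**Figure D4:**
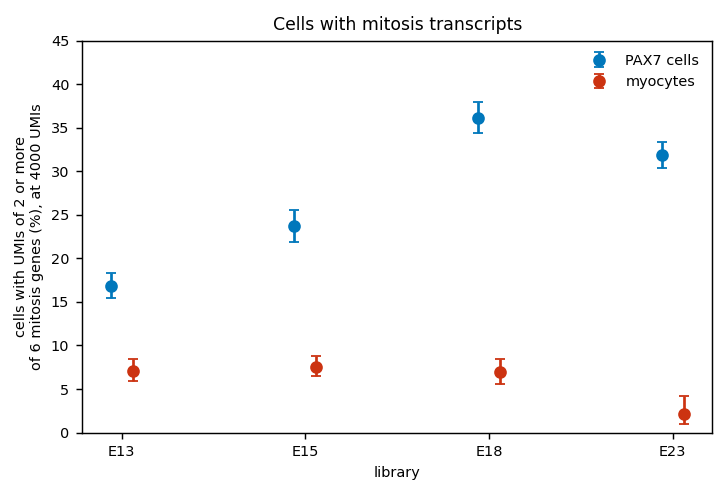
Percentage of cells with UMIs of at least 2 of 6 mitosis genes, in each library (horizontal axis) and group (colour), after thinning to 4000 UMIs. Bars are exact binomial intervals at 95% and cover counting error only. The PAX7 cells of each library (16.8 to 36.2%) lie above its myocytes (2.14 to 7.58%).

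Regulators of the cycle went both ways, with 7 of 27 higher in myocytes and 13 lower (median −0.51). These are 25.9% higher, against 21.9% of all genes, and 48.1% lower, against 22.4%. Without E18, 4 were higher. CDK6, a G1 kinase, fell (−2.15 ± 0.36, adjusted p = 0.000663). CDKN1B, an inhibitor of cyclin-dependent kinases, rose by 1.35 ± 0.22 (adjusted p = 0.000846), and the stress-responsive GADD45G and GADD45A rose by 3.16 ± 0.70 and 1.99 ± 0.48. GADD45G stood at 233, 282, 260.5 and 194 CPM in myocytes and 45.6, 17.8, 24.4 and 26.1 CPM in PAX7 cells. CDKN2C rose by 1.89 ± 1.53, a change that was 3.74 log2 units at E13 and 0.51 at E23 and that was lost without E13, E15 or E18. CDKN1A at −0.13 and CDKN1C at −0.51, both inhibitors known from muscle differentiation and named here after their values were seen, passed no test.

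Enzymes of glycolysis, glycogen and phosphagen went both ways, with a median of −0.04. Of 28 tested, 10 were higher (35.7%, against 21.9% of all genes) and 12 lower (42.9%, against 22.4%). Without E18, 6 were higher. The muscle isoforms PFKM (phosphofructokinase), CKM (creatine kinase) and ENO3 (enolase) rose by 6.61 ± 1.22, 6.38 ± 0.51 and 3.91 ± 0.84. CKM stood at 42.4, 35.5, 59.6 and 32.9 CPM in myocytes and 0.745, 0.314, 0.502 and 0.452 CPM in PAX7 cells. ENO3 was at low counts, 16, 20, 24 and 4 in myocytes and 2, 3, 1 and 10 in PAX7 cells. The isoforms of other tissues CKB and ENO1 fell (−1.10 ± 0.80 and −0.69 ± 0.16). CKB was lower in myocytes in 4 of 4 libraries and not called without E13 or E15, though its level in both groups was far lower at E23, 1625, 2641, 1579 and 275 CPM in PAX7 cells and 795, 1389, 1258 and 58.8 CPM in myocytes. GAPDH did not pass (adjusted p = 0.104), while GPI and AMPD3, an AMP deaminase, rose by 1.65 ± 0.57 and 2.90 ± 0.74.

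Nuclear genes of oxidative phosphorylation were slightly higher in myocytes, with a median of 0.29. Of 65 tested, 28 were higher (43.1%, against 21.9% of all genes) and 1 was lower (NDUFB9, −0.51, 1.54% against 22.4%). COX6A2 and COX7A1, muscle isoforms of cytochrome c oxidase subunits, changed most (4.60 ± 1.12 and 1.89 ± 0.48). COX6A2 was rare, with 93, 24, 10 and 12 counts in myocytes and 12, 1, 2 and 4 in PAX7 cells. NDUFA4 rose by 0.68 ± 0.24, and UQCRH and ATP5MC3, the list's genes with the highest counts beside it, passed no test. With total counts only the median was 0.12 and 21 were higher, without E15 0.20 and 17, and without E18 0.26 and 18. Without the block the median was 0.29 and 4 were higher. Without E18 NDUFB9 was no longer called and 0 were lower.

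Ribosomal protein genes were nearly level, with a median of 0.09. Of 62 tested, 5 were higher (8.06%, under the 21.9% of all genes) and 0 lower, under the 22.4% of all genes. RPS28, RPL21 and RPS20 rose by 0.54 ± 0.23, 0.39 ± 0.20 and 0.36 ± 0.17, beside RPLP1 (0.31) and RPS25 (0.28). With total counts only, 3 were higher and 10 lower, so no direction is given for the family, and without E18 0 were called. Without E13 or without E15 there were 2 higher. Ribosome biogenesis genes had 10 of 27 lower (37.0%, against 22.4% of all genes) and 0 higher, with a median of −0.30. NCL (nucleolin) stood at −0.37 ± 0.24, NOLC1 at −0.49 ± 0.26 and NPM1, not called, at −0.22 ± 0.29. The list had 3 lower without E15 or without E18, where genes lower over all genes went from 3072 to 1997 and 1974. It had 0 lower without the block, with 1673 over all genes, and 6 without E13, with 2860.

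RNA-binding factors of muscle had 14 of 31 higher and 6 lower, with a median of 0.25. These are 45.2% higher, against 21.9% of all genes, and 19.4% lower, near the 22.4% of all genes. RBM24, a splicing factor of muscle exons, stood at 235, 597, 606 and 521 CPM in myocytes. In PAX7 cells it stood at 44.3, 40.7, 24.7 and 18.6 CPM. The groups did not overlap, and E13 had the smallest gap (3.95 ± 1.09, adjusted p = 0.00228). CELF2, RBFOX2 and QKI rose by 2.73 ± 0.92, 1.48 ± 0.65 and 1.03 ± 0.25. PTBP1, a repressor of tissue-specific exons, fell (−1.36 ± 0.46, adjusted p = 0.00374), from 145, 107, 103 and 155 CPM to 84.3, 31.1, 32.1 and 68.8 CPM, and its relative PTBP3 (−1.01 ± 0.50). RBFOX1, related to RBFOX2, went the other way from it (−1.06 ± 0.85), with groups that met at E23, and its call was lost without E13, E15 or E18. The list had 9 higher and 9 lower with total counts only, 9 and 3 without E15, and 9 and 5 without E18.

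Stress genes were the last group, with 11 of 22 higher (50.0%, against 21.9% of all genes), 0 lower and a median of 0.56. HSPB1, a small heat shock protein abundant in muscle, held 612, 1039, 2174 and 1389 CPM in myocytes and 135, 115, 125 and 61.1 CPM in PAX7 cells (3.50 ± 1.04, adjusted p = 0.00266). SESN2, induced by amino acid shortage, rose by 2.97 ± 0.50. The E13 library stood apart in HMOX1 (haem oxygenase), with 3870.3, 108, 55.4 and 55.7 CPM in myocytes and 1859.9, 69.2, 67.5 and 77.5 CPM in PAX7 cells, high in both groups at E13 and without a call (adjusted p = 0.512). SESN2 was likewise highest at E13, 93.0, 14.9, 11.7 and 22.8 CPM in myocytes. Without E13, 8 of the 21 genes still tested were higher and 0 lower, without E23 7 were higher and 1 lower, and without the block 2 were higher. Over all genes, 2553 were higher and 2860 lower without E13, and 5013 of the 6073 calls still tested were kept in the same direction. All 20 genes named for the largest changes kept their call. They were chosen from these same libraries, so this is no separate support for them.

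A split of each library's myocytes into 3 equal parts by their share of ACTC1 UMIs is given as a description, with no test. ACTC1 is a gate gene, and genes that go with it from cell to cell had to differ between the parts. From the lowest to the highest part the mean of the 4 libraries went from 34.3 to 487 CPM for MYH15, from 151 to 921 for ACTN2 and from 34.0 to 305 for TMEM182, higher in 4 of 4 libraries. MYMK spanned less, from 94.9 to 208 CPM, and so did MEF2C, from 578 to 1352 CPM. MYOD1 was near level in the mean, at 1173 and 1207 CPM, but higher in the top part in 2 libraries and lower in 2.

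Other genes ran the opposite way in the same split. MYF5 went from 167 to 91.8 CPM, CALCR from 115 to 47.5, HEY1 from 26.9 to 12.5 and TOP2A from 107 to 6.52, lower in 4 of 4 libraries. JAG2 did not run the opposite way and went from 106 to 122 CPM, higher in 4 of 4 libraries. CALCR, higher in myocytes than in PAX7 cells, was lowest in the top part at every day.

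**Figure D5:**
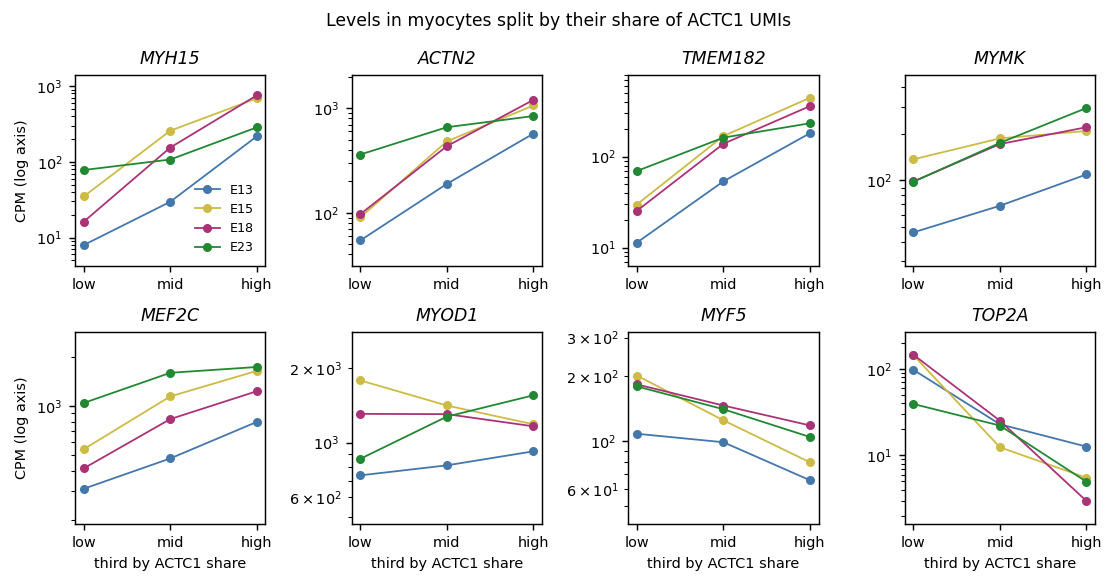
CPM (logarithmic vertical axes, unscaled) of 8 genes in myocytes split within each library into 3 equal parts by the share of ACTC1 in their UMIs, with 1 coloured line per library. MYH15, ACTN2, TMEM182, MYMK and MEF2C rise to the high part in all 4 libraries, MYF5 and TOP2A fall in all 4, and MYOD1 goes both ways.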

How the data were processed

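The authors aligned the reads with STAR in Cell Ranger and deposited raw UMI counts per gene and barcode. The labels name Cell Ranger 7.1.0 and the header of the deposited count matrices names release 9.0.0. All 25133 distinct gene symbols matched a table of another goose assembly, which was used for names and neighbours only. The day of each library came from the age label, since all 4 titles write day 13 ahead of the stage in brackets. The labels name Seurat 5.3.1, whose output was not used here.

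Barcodes within the limits of 300 to 6500 genes and 1000 to 50000 UMIs were gated as described. The highest mitochondrial share was 2.75 to 5.85% per library, under the limit of the study. No doublets were removed in the main analysis. The gate genes were left out of library totals and of the test. Sums of counts per library and group were tested in edgeR 4.0.16 (R 4.3.3) with filterByExpr, TMM factors (0.878 to 1.16), a term for the library and a robust quasi-likelihood fit, two-sided. The library was kept as a block because its myocytes and PAX7 cells share 1 pool of embryos. Residuals of both groups within a library had r of 0.481 to 0.600 and those of different libraries r of −0.413 to 0.211. In simulated counts of 13738 genes, 51 of 100 genes changed 2-fold and 80 of 100 changed 4-fold were recovered, with 11 false calls. No other genes were changed there, while 44.3% of genes were called in the data. The simulation therefore checks that the test runs and does not give recovery or false calls for this comparison.

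Alternatives were DESeq2 1.42.0, other scalings, filters and gates, no block, each library left out, scrublet scores (scanpy 1.11.5, up to 0.8% per 1000 barcodes), thinning to 4000 UMIs, leaving out cells with cycle or other-type transcripts, and 409 cells per sum. Scripts ran in Python 3.11.15 with the seed 1.

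The genes named are the 10 largest changes in each direction among genes called, with the same direction in 4 libraries, at least 20 CPM in the higher group and a proper symbol (6 LOC identifiers among the largest that rose and 1 among those that fell were passed over). Of each list the rule took the 3 members with the highest mean CPM, the 2 with the largest change and any called by 1 log2 unit or more against the majority, and it took every myogenic transcription factor tested. Not every gene it took is described. The members and lists were chosen with earlier results of these data known. Intervals and floors cover counting error only.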

Additional observations from a re-analysis of the deposited data

Results flagged for a closer look

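In 10 of the genes named, 1 library stood apart from the other 3 in the log2 difference of myocytes over PAX7 cells, or the libraries differed in direction. With 4 values per gene, chance flags about 1 in 20 genes in the first way, and 188 genes were looked at.

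EYA2, a transcriptional cofactor, was lower in myocytes at E13 by a log2 difference of −1.776 and higher at E18 by 1.005. The difference between the days was not tested, since each day has 1 library.

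At E13 the difference was smaller than at the other 3 days for EYA4 (1.975 against 2.69 to 2.84), CELF2 (1.345 against 3.02 to 3.36), LAMB2 (0.861 against 2.40 to 2.56), RPS28 (0.1993 against 0.60 to 0.68) and SKI, a repressor of SMADs (0.00189 against 0.25 to 0.29). SOX8, which counters myogenic differentiation in mouse, was lower in myocytes at E13 (−1.438) and between 0.40 and 0.60 at the other days. At E18 ZEB2, a zinc finger repressor, stood at 0.1826 against −0.43 to −0.34. At E23 EGR2 stood at 0.3585 against 1.52 to 1.59, and NOLC1 at −0.8847 against −0.40 to −0.33. Of the 9 genes whose library stood apart, 6 did so at E13. A total of 9 is near what chance alone flags among 188 genes, so no pattern by day is read from it.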

How the results depend on the processing

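Of 3169 comparisons of a named gene with an alternative, 2965 kept direction and side of the threshold, 63 gained and 140 lost the call and 1 turned. The gene that turned was SPC25, at 0.21 with cycling cells left out, which removes the cells that carry such transcripts. Over all genes, without the replicate block that ties both groups of a library 1592 genes were higher and 1673 lower, and 3239 of the 6087 calls were kept in the same direction. Leaving out 1 library gave 1824 to 2553 genes higher and 1974 to 2860 lower. A filter of at least 100 counts in 4 sums left 10074 genes, of which 851 were higher by at least 1 log2 unit. With cycling cells left out, 34 of the 5648 called genes still tested had the other sign, the most of any alternative. DESeq2 called 3403 genes higher and 3407 lower. Total counts only gave 2245 and 3881. Depth limits the E23 myocytes most, with 409 cells. With 409 cells in every sum 11052 genes could be tested, 2129 higher and 2366 lower. Promoter motifs were not run, since no promoter sequence was at hand.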
